A study of Mus musculus with 6 samples.

Results

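The 5 genes Dgat1, Dgat2, Agpat2, Gpd1 and Pck2 encode enzymes that make triglyceride or supply its glycerol phosphate backbone. They were chosen by name from the 3162 genes in the files, with their fed and fasted values known, and Dgat1 and Dgat2 were chosen as a pair because they moved in opposite directions. All 5 had a mean above 1 FPKM (a fragment count divided by transcript length and by the library's mapped total), the minimum for testing. Whole epididymal white adipose tissue, the visceral fat beside the epididymis, was sequenced in bulk from male wild-type C57BL/6J mice aged 16 weeks. One group had free access to food (fed, n = 3 mice) and the other was deprived of food for 24 h (fasted, n = 3 mice). The question was how short starvation alters the transcripts and lipid metabolism of this depot. Because the fed and fasted values chose the genes, their differences are given below as descriptions with no test.

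Adipocytes store fatty acids as triglyceride, built on glycerol 3-phosphate by adding acyl chains one at a time in the endoplasmic reticulum. White adipocytes phosphorylate little free glycerol and draw most glycerol 3-phosphate from dihydroxyacetone phosphate, which comes from glucose or, when glucose is short, from pyruvate and amino acids by glyceroneogenesis. The last acyl chain is added by either of a pair of diacylglycerol acyltransferases, DGAT1 and DGAT2, which catalyse the same reaction and belong to unrelated protein families. DGAT2 is known mainly for esterifying newly made fatty acids, and DGAT1 for re-esterifying fatty acids that come from outside the cell or from lipolysis.

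Each library listed the same 3162 genes, and their summed FPKM lay between 180058 and 209201. Sequencing depth is unknown. Only 3 of 2999 genes tested had a log2 fold change between -0.1 and 0.3, so the files hold genes that differ between these same libraries, and 93.4% of the genes tested had fed and fasted groups that did not overlap. In bulk tissue, fewer cells of a type and less RNA per cell cannot be told apart. Of 12 adipocyte markers listed, 5 were measured, and their summed FPKM was 5909.5 to 7076 in fed and 3259.9 to 3825 in fasted libraries. Retn was the largest part of each sum. The 5 fell unequally, with fasted to fed ratios of 0.66 (Retn), 0.46 (Plin1), 0.44 (Mrap), 0.28 (Aoc3) and 0.03 (Lep). Their sum is therefore no measure of adipocyte share. Adipoq was not analysed here.

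The promoters of Agpat2, which was lower in fasted tissue, and Pck2, which was higher, are shown because they could be read from RefSeq (GRCm38.p6) for 2 of the 5 genes. Each sequence is the 250 bases before the annotated start, 5′ to 3′ along the gene. Dgat1, Dgat2 and Gpd1 had no entry. Capitals mark matches to any of 7 motifs searched on both strands, which were the TATA box written TATAAA, the pentamer CCAAT, the GC box written GGGCGG, the E-box written CACGTG, the cAMP response element written TGACGTCA, the core of the ATF4 response element written TGATGNAA and a sterol response element written TCACCCCAC.
Agpat2, chr2:26604418-26604667, minus strand: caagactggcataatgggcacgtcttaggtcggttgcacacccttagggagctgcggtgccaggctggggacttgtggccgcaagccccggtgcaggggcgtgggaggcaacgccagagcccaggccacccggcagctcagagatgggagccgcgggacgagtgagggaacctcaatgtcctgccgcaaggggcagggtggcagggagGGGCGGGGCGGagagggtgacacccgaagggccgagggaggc
Pck2, chr14:55540016-55540265, plus strand: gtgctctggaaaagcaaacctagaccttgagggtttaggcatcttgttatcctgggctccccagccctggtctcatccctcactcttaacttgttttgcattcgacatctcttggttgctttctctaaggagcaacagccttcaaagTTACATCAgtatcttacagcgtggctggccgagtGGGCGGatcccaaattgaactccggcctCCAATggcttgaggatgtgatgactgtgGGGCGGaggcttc

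The Agpat2 window held GGGCGG at 42 to 37 and at 37 to 32 bases before the start, and these matches overlap by 1 base. Its GC content was 69.2%, against a median of 52.4% over the 32851 windows of the same length in the table. The Pck2 window had a GC content of 51.6% and also held GGGCGG in 2 places, at 69 to 64 and 13 to 8 bases before the start. GGGCGG occurs in 32.7% of all windows. Pck2 further held CCAAT at 41 to 37 bases, a motif found in 33.8% of windows. At 103 to 96 bases it held TTACATCA, which is a match to TGATGNAA on the opposite strand, and this motif occurs in 3.45% of windows. TATAAA (12.4% of windows), CACGTG (6.02%), TGACGTCA (1.55%) and TCACCCCAC (0.496%) were in neither window. These matches describe letters only, and binding was not measured.

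Of the 5 genes, Dgat2, Agpat2 and Gpd1 were lower and Dgat1 and Pck2 higher in every fasted library than in any fed library. The non-overlap of all 5 is read against 93.4% of the genes tested, of which 52.6% were lower and 40.8% higher throughout, and the rule that chose the 5 genes used this contrast. Log2 fold changes are of FPKM + 1, fasted minus fed, with the standard error (SE) from limma fitted over 2999 genes.

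**Figure D1:**
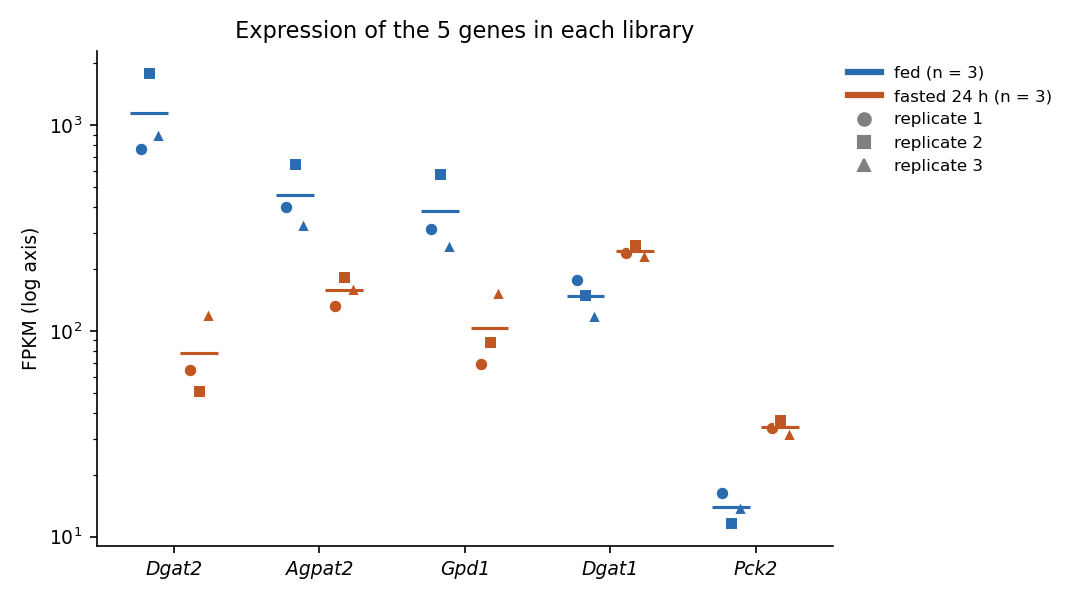
FPKM (log axis) of the 5 genes in each library, with fed libraries in blue, fasted in orange, symbols for replicates and a line at each group mean (n = 3). Dgat2, Agpat2 and Gpd1 lie lower in all fasted libraries, Dgat1 and Pck2 higher, and the groups overlap for none of the 5.

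The supply of glycerol phosphate was represented by Gpd1 and Pck2. Gpd1 (ENSMUSG00000023019; plus strand, chr15:99717515-99725005, GRCm38) encodes the cytosolic glycerol 3-phosphate dehydrogenase, which reduces dihydroxyacetone phosphate to glycerol 3-phosphate. Its FPKM was 314, 577 and 257 in fed replicates 1, 2 and 3 and 69.4, 88.0 and 153 in fasted replicates 1, 2 and 3. Fed replicate 2 was the highest of all, and fasted replicate 3 came nearest to the fed group without reaching it. The mean was 383 ± 171 FPKM fed and 103 ± 43.7 fasted (SD, n = 3 per group), a ratio of 3.71 between the groups and a log2 fold change of -1.87 ± 0.36 (SE). The antisense gene Gm16537, not analysed here, overlaps 384 bases (12.97%) of the exons of Gpd1, and FPKM carries no strand, so reads of the overlap cannot be assigned.

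Pck2 (ENSMUSG00000040618; plus strand, chr14:55540266-55551242) encodes the mitochondrial phosphoenolpyruvate carboxykinase, which makes phosphoenolpyruvate from oxaloacetate and so feeds the path towards dihydroxyacetone phosphate. It was the least abundant of the 5, with FPKM of 16.3, 11.6 and 13.8 in fed and 33.9, 36.8 and 31.4 in fasted replicates 1 to 3. The fasted libraries lay close together, well above the highest fed library, fed replicate 1. The means were 13.9 ± 2.34 and 34.0 ± 2.69 FPKM (SD, n = 3 per group), 2.45 times higher when fasted, with a log2 fold change of 1.24 ± 0.15 (SE). Its cytosolic counterpart Pck1 was not analysed here. The antisense gene Gm10876, also not analysed here, overlaps 53 bases (0.679%) of the exons of Pck2.

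Agpat2 (ENSMUSG00000026922; minus strand, chr2:26593057-26604417) encodes the acyltransferase that adds the second acyl chain, turning lysophosphatidic acid into phosphatidic acid. Its loss causes generalized lipodystrophy in people and mice. FPKM was 398, 649 and 326 in fed and 132, 183 and 160 in fasted replicates 1 to 3. As for Gpd1, fed replicate 2 was the highest library, and fasted replicate 2 was the highest fasted one. The mean went from 458 ± 169 to 158 ± 25.8 FPKM (SD, n = 3 per group), 2.89 times lower when fasted, and the log2 fold change was -1.48 ± 0.26 (SE). Exons of Agpat2 and of Egfl7, on the opposite strand, share 64 bases (3.00% of the exons of Agpat2). Egfl7, an endothelial gene, had 57.2, 76.7 and 53.1 FPKM fed and 163, 109 and 84.5 fasted, so it was higher where Agpat2 was lower.

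Dgat2 (ENSMUSG00000030747; minus strand, chr7:99153658-99182719) had the largest difference of the 5. FPKM was 766, 1787 and 900 in fed and 64.7, 50.9 and 120 in fasted replicates 1 to 3. The lowest fed library was several times above the highest fasted one, fasted replicate 3. The group means were 1151 ± 555 and 78.4 ± 36.3 FPKM (SD, n = 3 per group), 14.7 times lower when fasted. The log2 fold change was -3.85 ± 0.39 (SE), the fourth deepest of the 2999 genes tested. By FPKM, which is per transcript length, Dgat2 ranked 30, 11 and 24 among the 3162 genes in fed replicates 1 to 3 and 502, 621 and 272 in fasted replicates 1 to 3.

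Dgat1 (ENSMUSG00000022555; minus strand, chr15:76502015-76511953) moved the other way and by less. FPKM was 177, 150 and 118 in fed and 239, 262 and 231 in fasted replicates 1 to 3. All fasted libraries were above the highest fed library, fed replicate 1. The means were 148 ± 29.7 and 244 ± 16.1 FPKM (SD, n = 3 per group), 1.64 times higher when fasted, with a log2 fold change of 0.73 ± 0.16 (SE). Its rank by FPKM went from 219, 274 and 314 in the fed libraries to 149, 140 and 149 in the fasted ones. No annotated gene overlaps Dgat1 or Dgat2.

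The order of the acyltransferase pair was opposite in the groups. Dgat2 was 4.32, 11.9 and 7.62 times as abundant as Dgat1 in fed replicates 1 to 3, and 0.270, 0.194 and 0.518 times in fasted replicates 1 to 3. Every fed library therefore had more Dgat2 than Dgat1 per transcript length, and every fasted library had less. On the log2 scale the ratio was 2.87 ± 0.73 fed and -1.73 ± 0.72 fasted (SD, n = 3 per group), a difference of -4.61. Dgat2 made up 87.3 ± 5.61% of the summed FPKM of the pair in fed tissue and 23.9 ± 9.21% in fasted tissue. The sum itself was 943, 1937 and 1018 FPKM in fed replicates 1 to 3 and 304, 313 and 350 in fasted replicates 1 to 3. The mean of Dgat2 decreased by 1072 FPKM while that of Dgat1 was 95.5 FPKM higher, so the summed level of the pair was lower in every fasted library.

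**Figure D2:**
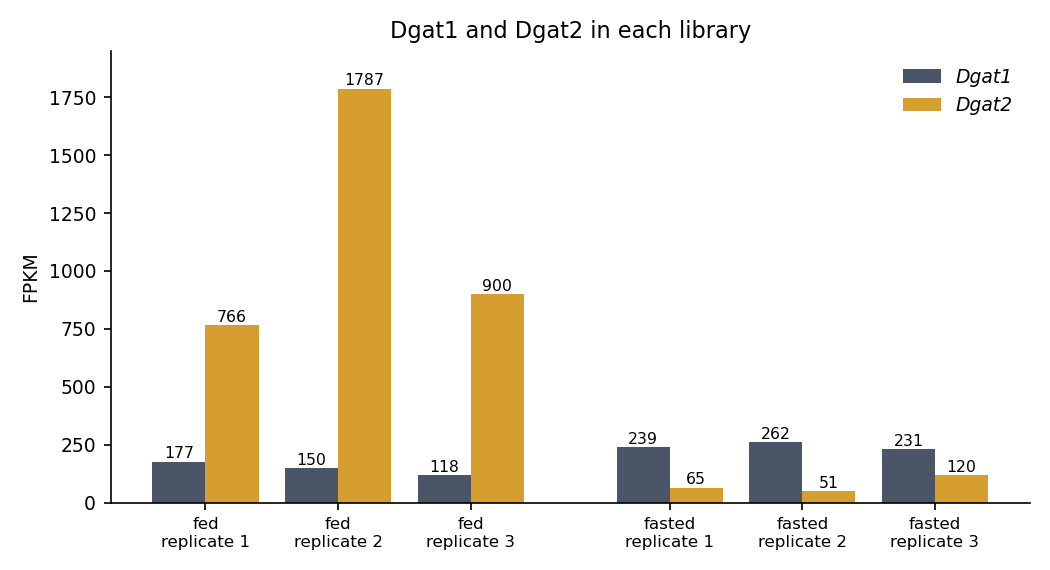
FPKM of Dgat1 (grey) and Dgat2 (yellow) in each of the 6 libraries, with the value above each bar. Dgat2 is the taller bar in all 3 fed libraries and the shorter bar in all 3 fasted libraries.

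Ordered by mean FPKM, the fed libraries had Dgat2 first, then Agpat2, Gpd1, Dgat1 and Pck2. In the fasted libraries the order was Dgat1, Agpat2, Gpd1, Dgat2 and Pck2. Neighbours in these orders were not all apart. Agpat2 (326 to 649 FPKM) and Gpd1 (257 to 577) overlapped in fed tissue, and in fasted tissue Agpat2 (132 to 183) overlapped Gpd1 (69.4 to 153), which in turn overlapped Dgat2 (50.9 to 120). Dgat2 in fed tissue, and Dgat1 and Pck2 in both groups, overlapped none of the other 4.

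How the mice of a group differed among themselves was not used to choose the genes by name. The files, however, hold genes that differ between the groups, and spread within groups can affect which genes show such a difference. The percentiles given here are therefore places among the genes in the files, and cannot decide whether a gene is unusually variable in general. Dgat2 and Gpd1 varied more within groups than most genes tested. Their pooled standard deviations of log2(FPKM + 1) were 0.64 and 0.59, at percentiles 97.1 and 96.4 of the 2999 genes tested, whose median was 0.20. Agpat2 varied mainly among fed mice, with 0.51 (percentile 92.4) fed and 0.24 (percentile 66.0) fasted. Dgat1 and Pck2 had pooled values of 0.22 and 0.18, at percentiles 55.2 and 41.7.

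The excursions of the 3 genes that were lower in fasted tissue often fell in the same library. Fed replicate 2 was above the fed mean by 0.74 for Dgat2, 0.68 for Gpd1 and 0.56 for Agpat2 on the log2 scale, by 0.03 for Dgat1, and stood at -0.23 for Pck2. This library was the highest fed library for 44.8% of all genes tested. Fasted replicate 3 was above the fasted mean by 0.70 for Dgat2 and 0.64 for Gpd1, but by only 0.03 for Agpat2, whose highest fasted library was replicate 2. Fasted replicate 3 was the highest fasted library for 24.9% of genes tested. Both shares count genes of either direction. Over all genes, fed replicate 2 was the fed library least like the fasted ones. Its Spearman correlations with fasted replicates 1 to 3 were 0.832, 0.835 and 0.881, against 0.886, 0.889 and 0.926 for fed replicate 1. Those of fed replicate 3 were 0.879, 0.883 and 0.924. For each fed library the highest value was with fasted replicate 3. Whether these 3 genes go beyond that pattern was not tested. Without fed replicate 2, the log2 fold changes were -3.48 ± 0.34 for Dgat2, -1.53 ± 0.32 for Gpd1 and -1.20 ± 0.18 for Agpat2 (SE). Without fasted replicate 3 they were -4.20 ± 0.36, -2.19 ± 0.34 and -1.49 ± 0.31.

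**Figure D3:**
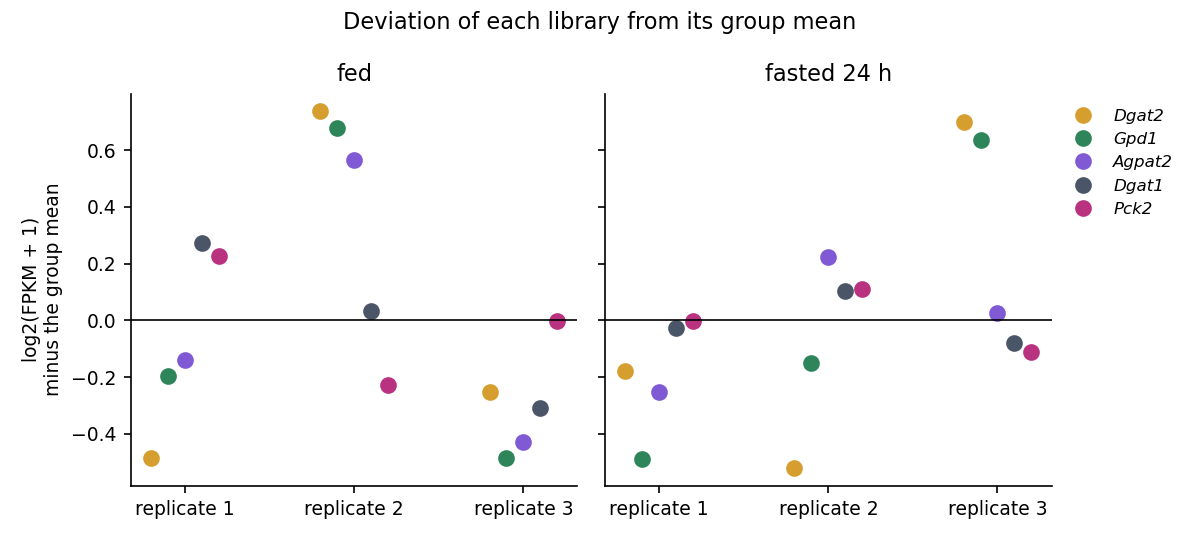
Log2(FPKM + 1) of each of the 5 genes in each library minus the mean of its group, fed libraries on the left and fasted on the right. Dgat2, Gpd1 and Agpat2 stand together above the mean in fed replicate 2, and Dgat2 and Gpd1 in fasted replicate 3.

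Markers of several cell types also differed between the groups, in files where 93.4% of the genes tested had groups that did not overlap. Only markers that the files hold could be read, so their sums do not measure how the share of a cell type changed. The 5 of 6 red blood cell genes measured summed to 1892 to 2799.8 FPKM fed and 3955 to 10136 fasted, with the lowest fasted sum in replicate 2. The 3 of 9 endothelial markers measured (Pecam1, Tek and Emcn) summed to 123 to 139.98 FPKM fed and 199 to 261 fasted. The 6 of 10 fibroblast markers measured summed to 893 to 1184 fed and 1329 to 1946 fasted. Of these, 3 were higher (Pdgfrb, Dcn and Ly6a) and 3 lower (Col1a1, Col1a2 and Col3a1) throughout, against 40.8% and 52.6% of all genes tested. Dcn was the largest part of each fibroblast sum, with means of 505 FPKM fed and 1061 fasted. The macrophage marker Itgam (1 of 12 measured) was at 4.55 to 8.38 FPKM fed and 2.12 to 3.86 fasted, and the T cell marker Cd3e (1 of 9) at 0.15 to 0.23 and 0.89 to 0.98. Of 8 markers of epididymal epithelium only Adam7 was measured, at 2.05 FPKM in fed replicate 2 and 0 to 0.03 in the other 5 libraries, with 0 in fasted replicates 1 and 3. No B cell (0 of 7) or mesothelial (0 of 7) marker was measured. The part of these shifts in the values of the 5 genes was not tested.

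The rest of the pathway was read from 8 lists of related genes, leaving out the 5 genes above. Of 96 other genes listed, 20 were measured, and of these 13 fell, 5 rose and 2 did not pass the test (limma, adjusted p under 0.05 by Benjamini-Hochberg over 2999 genes). Over all genes tested 90.5% passed, 49.4% as lower and 41.1% as higher. The 18 of 20 is thus near the background share. With the adjustment widened to all annotated genes, Plpp1, Crls1, Slc27a1, Dbi, Lpgat1 and Pnpla3 still passed, and the calls of the other 12 named below ended (limma adjusted p = 0.0987 to 0.783). The median log2 fold change of the 20 genes was -0.52, beside -0.34 over all genes tested.

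Of 16 other triglyceride assembly genes, 5 were measured, with 4 falls and 1 rise. Plpp1, a lipid phosphatase that can remove the phosphate of phosphatidic acid, rose from 24.8 ± 4.63 to 71.7 ± 7.12 FPKM (SD, n = 3 per group; log2 fold change 1.51 ± 0.16, limma adjusted p = 0.000889). Lpin3, a phosphatidic acid phosphatase of the lipin family, fell (-0.73 ± 0.21). Agpat1, the paralogue of Agpat2, was 62.2, 74.2 and 68.2 FPKM fed and 54.6, 50.1 and 57.3 fasted (-0.33 ± 0.12, limma adjusted p = 0.0319). That call ended with median-ratio or quantile scaling and when fed replicate 2 or 3 or fasted replicate 1 or 2 was left out (limma adjusted p = 0.0614 to 0.374). Agpat2 was 6.64 ± 1.995 times as abundant as Agpat1 in fed tissue and 2.95 ± 0.64 times in fasted tissue (SD, n = 3 per group). Unlike the DGAT pair, the AGPAT pair kept its order in all 6 libraries.

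The monoacylglycerol acyltransferases Mogat1 and Mogat2, relatives of Dgat2 that make diacylglycerol, were the 2 measured of 5 listed members of the DGAT2 family. Mogat1 fell from 43.4 ± 3.40 to 28.4 ± 2.39 FPKM (SD, n = 3 per group; -0.60 ± 0.12, limma adjusted p = 0.00533, and 0.0987 over all annotated genes). Mogat2 had 1.33, 20.6 and 2.43 FPKM in fed and 0.10, 0.16 and 0.15 in fasted replicates 1 to 3 (-2.29 ± 0.73, limma adjusted p = 0.0195). Its high value was in fed replicate 2, the library with Adam7, without which its mean was below the 1 FPKM minimum and it was not tested. Its call also ended without fasted replicate 1 (limma adjusted p = 0.0544) or 3 (limma adjusted p = 0.0504). No member of the DGAT1 family other than Dgat1 (0 of 10) was measured.

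Of 17 other genes of glycerol phosphate supply and glyceroneogenesis, 4 were measured and 3 fell. Gpd2, the mitochondrial glycerol 3-phosphate dehydrogenase that turns glycerol 3-phosphate back to dihydroxyacetone phosphate, fell from 12.1 ± 2.11 to 6.28 ± 1.02 FPKM (SD, n = 3 per group; -0.84 ± 0.17, limma adjusted p = 0.00537). Gpd1 was 32.5, 42.4 and 19.9 times as abundant as Gpd2 in fed replicates 1 to 3 and 11.8, 15.9 and 20.5 times in fasted replicates 1 to 3. These ratios overlapped between the groups. Mdh1, the cytosolic malate dehydrogenase, fell by 0.60 (SE 0.13) and Mpc1, a subunit of the mitochondrial pyruvate carrier, by 0.55 (SE 0.16) on the log2 scale. Over all annotated genes the calls of Gpd2 (limma adjusted p = 0.0994), Mdh1 (0.105) and Mpc1 (0.253) ended. Quantile scaling also ended the call of Mdh1 (limma adjusted p = 0.0678) and median-ratio scaling that of Mpc1 (limma adjusted p = 0.0504). Mpc2, the other carrier subunit, did not pass (-0.31 ± 0.17, limma adjusted p = 0.102, and 0.0389 without fed replicate 3). None (0) of these 4 passed as higher by limma, against 41.1% of all genes tested, and 4 genes are too few to read against that share. Pck2 was higher in fasted tissue, but it was chosen by this contrast and not tested, so these 4 do not set it apart.

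Of 11 genes of fatty acid activation and binding, 4 were measured, with 3 falls and 1 rise. Slc27a1, a fatty acid transporter with acyl-CoA synthetase activity, rose from 220 ± 90.2 to 940 ± 130 FPKM (SD, n = 3 per group; 2.19 ± 0.32, limma adjusted p = 0.00195), with its lowest fed value, 117 FPKM, in fed replicate 2. Dbi, the acyl-CoA binding protein, fell from 3089 ± 317 to 1371 ± 20.2 FPKM (-1.17 ± 0.14, limma adjusted p = 0.000997). Slc27a4, a related transporter, fell (-0.64 ± 0.15). Acbd3, a Golgi protein with an acyl-CoA binding domain, also passed as lower (-0.30 ± 0.12, limma adjusted p = 0.0423), and that call ended with median-ratio or quantile scaling and without any 1 library (limma adjusted p = 0.0596 to 0.396).

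Genes of the branches that lead from phosphatidic acid or diacylglycerol to other lipids went both ways. In the phospholipid branch 3 of 20 were measured. Crls1, the cardiolipin synthase, rose from 41.0, 44.6 and 68.6 FPKM in fed to 201, 211 and 186 in fasted replicates 1 to 3 (1.97 ± 0.19, limma adjusted p = 0.000611). Pgs1, which acts upstream of it, was lower (-0.49 ± 0.16, limma adjusted p = 0.0211), a call that ended with median-ratio scaling and when fed replicate 1 or 2 or fasted replicate 1 or 3 was left out (limma adjusted p = 0.0509 to 0.136). Selenoi, an ethanolamine phosphotransferase that uses diacylglycerol, did not pass (-0.27 ± 0.13, limma adjusted p = 0.0774, and 0.0244 with quantile scaling). The diacylglycerol kinases Dgka (0.70 ± 0.16) and Dgkh (0.54 ± 0.21), the 2 measured of 10, rose, and the call of Dgkh ended with quantile scaling, without any 1 fed library and without fasted replicate 1 (limma adjusted p = 0.0573 to 0.0844).

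Among 9 genes of triglyceride storage at the endoplasmic reticulum, 2 were measured and both fell. Pnpla3, a lipid droplet protein with hydrolase and acyltransferase activity, had 327, 470 and 289 FPKM fed and 9.62, 7.72 and 15.3 fasted (-4.95 ± 0.26, limma adjusted p = 0.000188). Its highest fed and highest fasted libraries, fed replicate 2 and fasted replicate 3, were the same as those of Dgat2. Over all genes these were the fed library least like the fasted ones and the fasted library most like the fed ones. Lpgat1, a lysophospholipid acyltransferase, had 100, 90.3 and 51.3 FPKM fed and 11.6, 13.6 and 15.2 fasted (-2.45 ± 0.25, limma adjusted p = 0.00064).

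**Figure D4:**
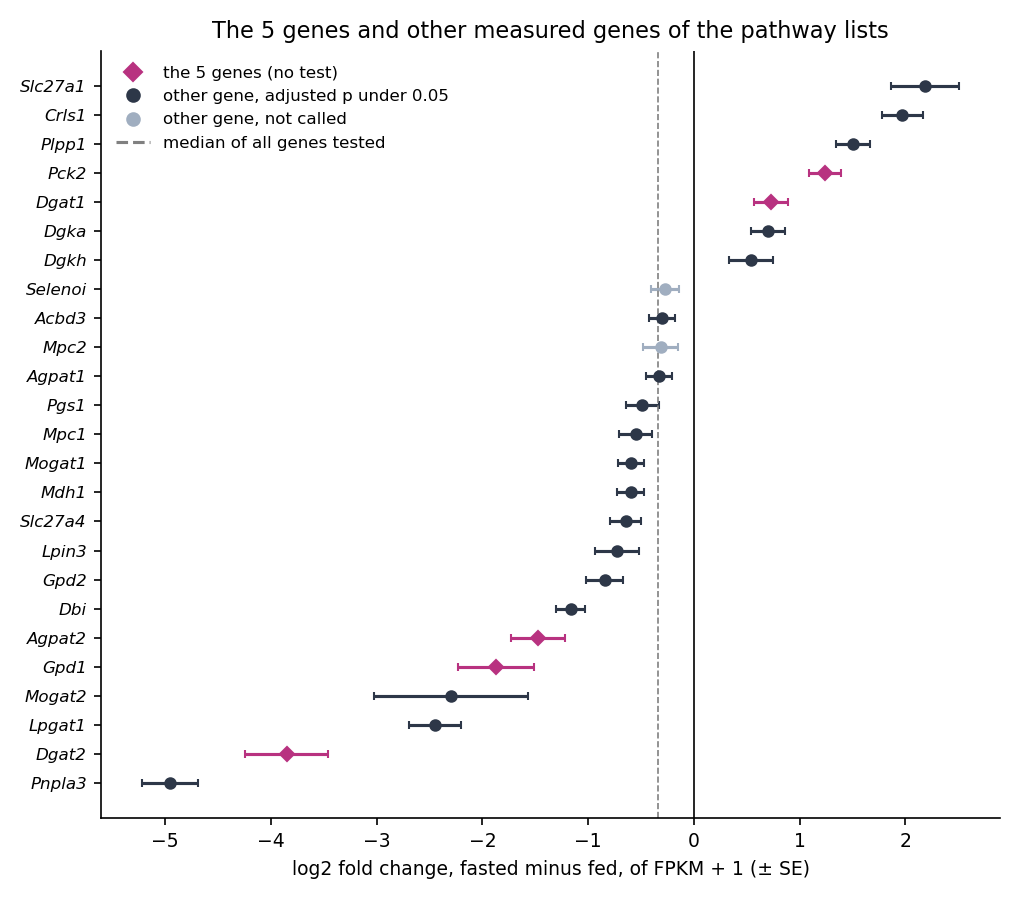
Log2 fold change of FPKM + 1 (fasted minus fed, ± SE) of the 5 genes (diamonds, no test) and of the 20 other measured pathway genes (circles, dark where adjusted p is under 0.05), with the median of all genes tested as a dashed line. Dgat2 lies between Pnpla3 and Lpgat1 at the low end, and Pck2 and Dgat1 lie among the genes above 0.

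Set among all genes tested, the 5 genes did not stand at the same place. Dgat2 was number 4 and Gpd1 number 72 from the deepest fall, and Agpat2 number 143. Pck2 was number 180 and Dgat1 number 710 from the largest rise. The median log2 fold change of all genes tested was -0.34, against -0.15 when libraries were scaled by median ratios and -0.21 with quantile scaling. Relative to the median of -0.34, the 5 genes stood at -3.51 (Dgat2), -1.53 (Gpd1), -1.14 (Agpat2), 1.07 (Dgat1) and 1.58 (Pck2). Over all genes tested, 1232 passed as higher and 1482 as lower, with higher genes making up 45.4% of calls, against 61.2% with median-ratio scaling.

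**Figure D5:**
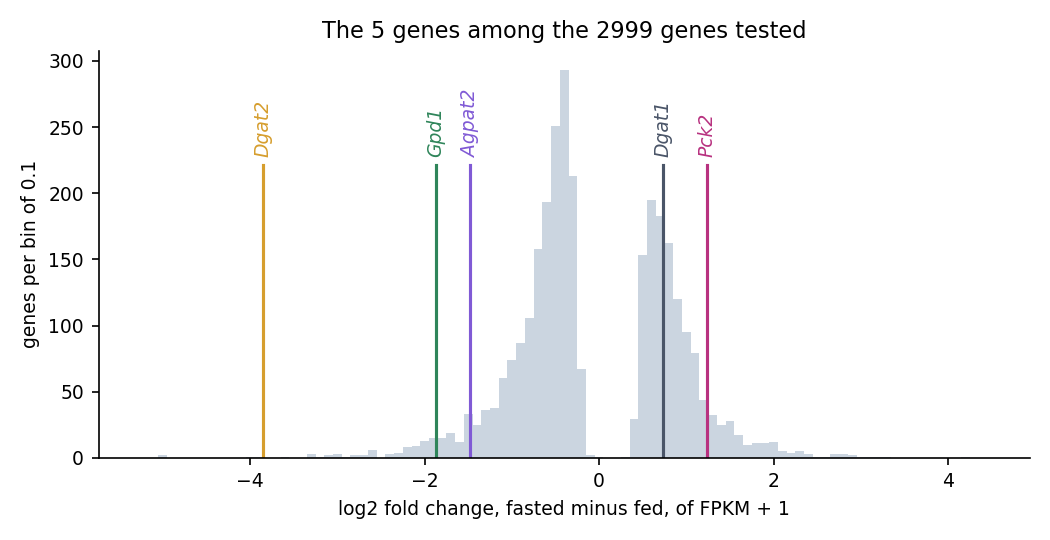
Number of the 2999 genes tested in bins of log2 fold change (fasted minus fed, of FPKM + 1), with a line at each of the 5 genes. Few genes lie near 0, and Dgat2 at -3.85 stands far from the bulk of lower genes while Dgat1 at 0.73 stands within the bulk of higher genes.

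The genes most like each of the 5 were sought by Pearson correlation of log2(FPKM + 1) over the 6 libraries, among 2944 named genes tested. For Dgat2 they were Nudt5 (0.999), Mvk (0.998) and Sparc (0.998). For Dgat1 they were Arid3a (0.995), Nav1 (0.993) and Postn (0.990). Agpat2 was most like Leo1 (0.998), Tank (0.997) and Vim (0.997), Gpd1 most like Sema3c (0.994) and Sfrp5 (0.990), and Pck2 most like Sh2b3, Bnip3l and Usp3 (each at least 0.998). None of the 5 genes shared a nearest gene. The 6 libraries form 2 separate groups, so these values reflect the difference between fed and fasted mice first, and 412 genes reached 0.95 with Dgat2 but only 54 with Dgat1.

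Some of these genes ranked the 6 libraries exactly as their counterpart did. They were picked by correlation over the same libraries, so the shared order is not a further result. Mvk, the mevalonate kinase of sterol synthesis, had 18.5, 28.4 and 21.6 FPKM fed and 7.07, 6.72 and 9.03 fasted, the order of Dgat2. Sfrp5, a secreted Wnt inhibitor of adipocytes, had 29.8, 64.8 and 17.2 FPKM fed and 3.59, 5.84 and 13.2 fasted, the order of Gpd1. Bnip3l, a mitophagy receptor, had 63.0, 47.8 and 55.8 FPKM fed and 116, 121 and 109 fasted, the order of Pck2.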

How the data were processed

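The authors deposited 1 file per library with FPKM values, per the file headers, to at most 2 decimals. RSEM and the builds mm10 and GRCm38.p6 are named in the submitters' processing notes; the sources used here do not give their versions, the aligner or how genes were kept. Trizol RNA came from 70 mg of tissue, per the labels' protocols. Depth is unknown, so no counting interval is given. Symbols and coordinates come from GENCODE M21 (GRCm38), which matched 3161 of 3162 identifiers.

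Genes averaging 1 FPKM or more were compared with limma 3.58.1 (R 4.3.3; lmFit, eBayes with trend) on log2(FPKM + 1), which understates changes of low genes. Two-sided p-values were adjusted over 2999 genes by Benjamini-Hochberg, with 0.05 as the threshold. Because the files hold genes that differ between these libraries, this is not a genome-wide false discovery rate. The fit was tested on simulated data in which most genes were unchanged. These files differ from that setting, so the simulation does not vouch for the p-values given here. Libraries were grouped by treatment label, and replicate numbers only name samples.

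The 5 genes and all lists were chosen with earlier results of these data known. Named were the 5 genes, measured members of 5 pathway lists, up to 4 by smallest p of the other 3, the 3 likest genes of each of the 5 and genes whose exons overlap theirs. A gene that this rule takes is not reported here. Cell type markers come from 9 further lists. The alternatives were a pseudocount of 0.1, no filter, 2 scalings, adjustment over all 55536 annotated genes (genes not tested entering as the least significant) and each library left out. Both scalings draw on the genes in the files, few of which had a fold change near 0, so they cannot decide which scale is right. A comparison of the DGAT1 and DGAT2 protein sequences was planned and not run.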

Additional observations from a re-analysis of the deposited data

How the results depend on the processing

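No direction of the 5 genes, of the Dgat2 to Dgat1 ratio or of the 20 other pathway genes reversed under any alternative that gave a value. For most alternatives this was fixed in advance. The groups did not overlap for the ratio or for any of these genes except Mpc2. Where groups do not overlap, only the 2 scalings could have reversed a direction. Across alternatives the log2 fold change ranged from -4.20 to -3.48 for Dgat2, -1.69 to -1.20 for Agpat2, -2.19 to -1.53 for Gpd1, 0.58 to 0.95 for Dgat1 and 1.13 to 1.44 for Pck2. The highest values of the last 2 came with quantile scaling (0.95 for Dgat1) and median-ratio scaling (1.44 for Pck2), each moved by more than the spread between replicates. The log2 difference of the Dgat2 to Dgat1 ratio ranged from -5.00 to -4.25. With adjustment over all annotated genes, 172 genes were higher (1232 before) and 192 lower (1482 before), and of the other pathway genes 3 rose (5 before) and 3 fell (13 before) (Plpp1, Crls1 and Slc27a1 rose; Dbi, Lpgat1 and Pnpla3 fell), since each gene not tested entered as the least significant. Median-ratio scaling left 787 genes lower, and the cause was not tested. Leaving out 1 library gave 9 to 12 falls and 4 or 5 rises of pathway genes. No paired analysis was possible because the submitters' labels number no replicates; the numbers used here follow accession order and pair no mice. Unknown depth limits statements on genes of low FPKM such as Mogat2.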
